A study of Rattus norvegicus with 8 samples.

Results

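The small leucine-rich proteoglycans were examined in the right Achilles tendon of rats after a treadmill run. The family was taken as 10 genes by name, namely *Dcn*, *Bgn*, and *Aspn* of class I, *Fmod*, *Lum*, *Kera*, *Prelp*, and *Omd* of class II, and *Ogn* and *Epyc* of class III. All 10 were found by symbol among the 32883 genes of the count table, and 9 had enough reads to be tested. The polyadenylate mRNA of 8 male wild-type Sprague-Dawley (SD) rats, 8 to 10 weeks old, was sequenced. In the 12 h p.r. (post-running) group, 4 rats ran uphill on a treadmill for 1 hour and were killed after 12 hours of rest. In the NC (naïve control) group, 4 rats stayed in their cages and were killed at the same time. The comparison asks whether a single bout of running had changed gene expression in the tendon by 12 hours of rest. Each library was taken as 1 rat from its label, and the p-values measure only the spread between these libraries.

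Small leucine-rich proteoglycans are secreted proteins of the extracellular matrix whose core is a curved stack of leucine-rich repeats. The core binds the surface of collagen fibrils, and many members carry chondroitin or dermatan sulfate chains (class I) or keratan sulfate chains (class II). In tendon they are known to limit the lateral fusion of fibrils and to set fibril diameter and spacing, and several of them also bind growth factors such as transforming growth factor β. Decorin (*Dcn*) and fibromodulin (*Fmod*) are the members best known from mature tendon.

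Several members lie side by side in the genome. In the order of protein-coding genes of the rat assembly GRCr8 (RefSeq), *Dcn*, *Lum*, *Kera*, and *Epyc* followed each other on chromosome 7, *Ogn*, *Omd*, and *Aspn* on chromosome 17, and *Prelp* and *Fmod* on chromosome 13, while *Bgn* was on chromosome X. The deposited counts were made on another assembly, Rnor_6.0, so GRCr8 positions serve only to place the sequences. RefSeq promoter sequences were found for 7 of the 10 members. The 3 neighbors on chromosome 17 are shown because *Ogn* and *Aspn* differed in opposite directions within the running group while *Omd* had no reads, and *Kera* and *Epyc* are shown because they are neighbors with very different mRNA levels. Only bases before the start of the annotated gene are printed, 5′ to 3′ on the strand of the gene, and capitals mark motif matches on either strand.
Ogn promoter, GRCr8 chr17:15259168-15259245, minus strand: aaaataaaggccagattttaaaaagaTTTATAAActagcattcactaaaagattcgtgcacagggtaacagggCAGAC
Omd promoter, GRCr8 chr17:15274871-15275120, minus strand: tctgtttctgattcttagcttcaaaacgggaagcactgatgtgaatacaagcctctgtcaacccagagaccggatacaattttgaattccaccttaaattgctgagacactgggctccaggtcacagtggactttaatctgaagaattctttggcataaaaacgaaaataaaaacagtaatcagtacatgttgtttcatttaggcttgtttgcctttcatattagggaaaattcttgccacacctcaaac
Aspn promoter, GRCr8 chr17:15310568-15310719, minus strand: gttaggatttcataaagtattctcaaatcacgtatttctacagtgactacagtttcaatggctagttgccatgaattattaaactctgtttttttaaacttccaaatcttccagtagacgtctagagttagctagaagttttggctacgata
Kera promoter, GRCr8 chr7:34283850-34284099, plus strand: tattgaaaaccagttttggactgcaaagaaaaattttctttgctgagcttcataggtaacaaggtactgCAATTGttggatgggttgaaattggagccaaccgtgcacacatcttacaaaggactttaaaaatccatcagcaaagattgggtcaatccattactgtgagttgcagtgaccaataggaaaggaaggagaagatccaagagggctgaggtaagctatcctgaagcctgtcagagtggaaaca
Epyc promoter, GRCr8 chr7:34323082-34323331, plus strand: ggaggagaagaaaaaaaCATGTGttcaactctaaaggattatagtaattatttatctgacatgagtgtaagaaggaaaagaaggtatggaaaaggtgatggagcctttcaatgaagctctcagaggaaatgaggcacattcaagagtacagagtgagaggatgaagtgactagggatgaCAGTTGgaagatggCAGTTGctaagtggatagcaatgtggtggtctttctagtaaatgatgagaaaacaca

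The motifs searched on both strands in the 250 bases before the start were the TATA box, spelled TATAAA, the E-box, spelled CANNTG, the AP-1 site, spelled TGANTCA, and the SMAD box, spelled CAGAC. The *Ogn* window held 2 TATAAA matches, 1 on each strand and overlapping each other in the capital run TTTATAAA, whereas the other 6 windows held 0. Over all 33469 RefSeq promoters, 12.9% held TATAAA. The E-box pattern was matched 3 times in *Ogn*, 3 times in *Epyc*, and 1 time each in *Aspn*, *Kera*, and *Lum*, against 65.5% of all promoters with at least 1 match. CAGAC was matched 3 times in *Lum*, 2 times in *Fmod*, and 1 time in *Ogn*, and 42.9% of all promoters held it. TGANTCA was matched in 0 of the 7 windows and in 6.34% of all promoters, and the *Omd* window held 0 matches of any of the 4 motifs. The E-box matches of *Ogn* and *Aspn* and all matches of *Lum* fell within the annotated genes and are not printed, and the *Fmod* window, whose matches lie before its gene, is not shown. These matches describe letters in the windows, not sites at which a factor binds.

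The libraries held 7350509 to 12951397 counts, and 13937 genes were tested. Markers of skeletal muscle were summed over the 11 of 14 listed that were found by symbol, all of them tested. *Myh2*, *Myh4*, and *Ttn* were not found. The sum reached 62502 CPM (counts scaled to 1000000 reads of the TMM-scaled library) in 12 h p.r. replicate 3 against 2448.6 to 11872 CPM in the other 7 rats. This rat held the highest value of 9 of the 11 markers. Its *Myh7* (51.17 CPM) and *Mb* (282.8 CPM) lay below the NC ranges of 237.9 to 757.4 and 307.6 to 773.4 CPM. In the same rat the 10 tenocyte markers, which include the members *Fmod* and *Kera*, summed to 16767 CPM against 27898 to 49093 CPM in the others. Markers of cartilage and bone (11 tested of 19) summed to 1311.7 CPM in 12 h p.r. replicate 1 and 2370.6 CPM in NC replicate 3, against 250.27 to 633.92 CPM in the other 6 rats. In bulk tissue, fewer cells of a type and less RNA per cell cannot be told apart.

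Decorin mRNA was by far the most abundant of the family. Levels were compared between genes as FPKM, reads per kilobase of gene length on a common depth scale. The mean FPKM over the 8 rats was 5049 for *Dcn*, 810.3 for *Fmod*, 366.6 for *Bgn*, 295.9 for *Prelp*, and 274.8 for *Kera*, followed by 112.4 for *Lum*, 32.22 for *Ogn*, 13.86 for *Aspn*, and 0.697 for *Epyc*. The order was firm only at some steps. *Dcn* lay above *Fmod* in 8 of 8 rats, by 4.19 to 9.1 times, and *Aspn* above *Epyc* in 8 of 8 rats, both with no overlap of the ranges. *Fmod* exceeded *Bgn* in 8 of 8 rats and *Kera* exceeded *Lum* in 8 of 8 rats within each rat, although the ranges over rats overlapped. The neighbors *Bgn* and *Prelp* (6 of 8 rats in that order), *Prelp* and *Kera* (4 of 8), and *Ogn* and *Aspn* (4 of 8) did not differ beyond their spread.

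**Figure D1:**
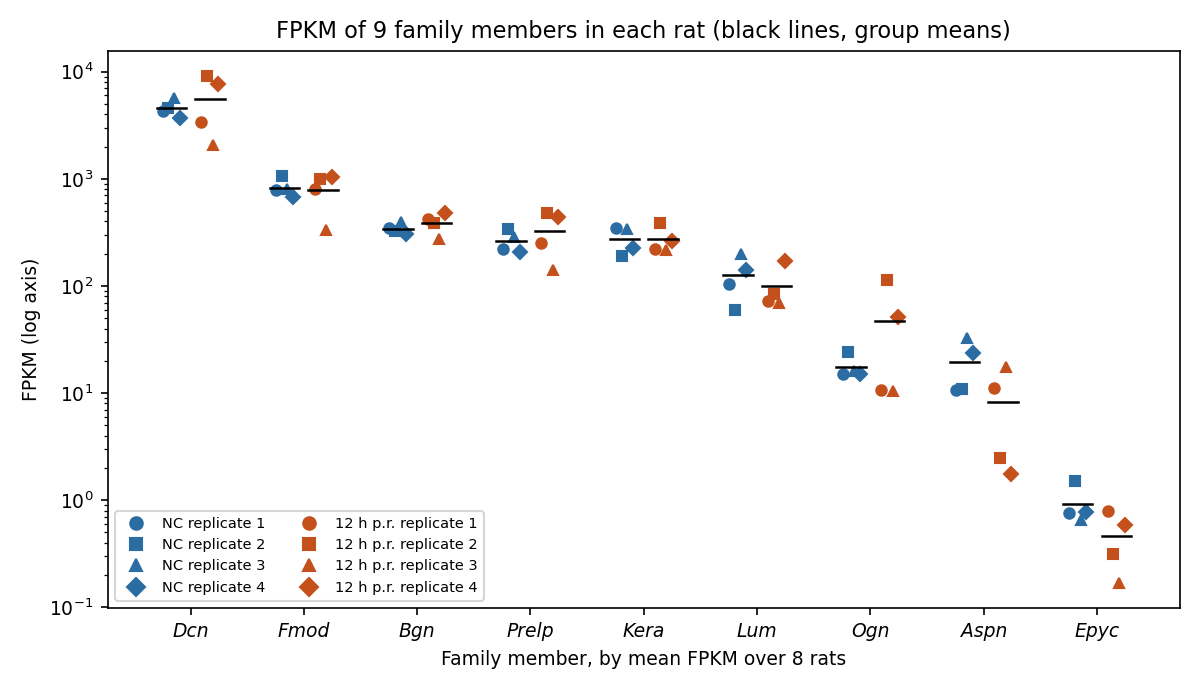
FPKM of the 9 detected members in each rat, on a log axis, with NC rats in blue, 12 h p.r. rats in orange, and black lines at the group means. The members span from a mean of 0.697 FPKM for *Epyc* to 5049 FPKM for *Dcn*, and the orange points of *Dcn*, *Ogn*, and *Aspn* lie on both sides of, or extend well beyond, the blue ones.

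*Omd*, which encodes osteomodulin, a keratan sulfate member known from bone and teeth, was listed at 0 reads in 8 of 8 libraries. A count of 0 allows up to 3 counts, or 0.227 to 0.395 CPM depending on the library, and this floor covers counting error only. *Epyc*, which encodes epiphycan of growth plate cartilage, had only 3 to 26 reads per library. *Epyc* was therefore near the limit of this depth. Why *Omd* had no reads was not tested.

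None of the 9 tested members passed the threshold of an adjusted p-value under 0.05 between the 12 h p.r. and NC groups with the quasi-likelihood test of edgeR and Benjamini-Hochberg adjustment over all 13937 genes. Over all genes 0.00718% passed it, which is 1 gene. At an unadjusted p-value under 0.05 the count was 0 of 9 members in the same test and 0 with DESeq2. Over all genes, 9.51% passed it in edgeR and 1361 of 20945 genes in DESeq2. The CPM values of the groups overlapped in 9 of 9 members, and 6.06% of all genes showed no overlap. With only 9 members, counts of 0 do not set the family apart from these shares. The log2 fold change was above 0 in 4 members and below 0 in 5, with a median of -0.017 against 0.0228 over all genes. The 95% intervals of *Dcn*, *Aspn*, *Lum*, *Prelp*, *Ogn*, and *Epyc* include a 2-fold change in at least 1 direction, while those of *Bgn*, *Fmod*, and *Kera* do not.

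**Figure D2:**
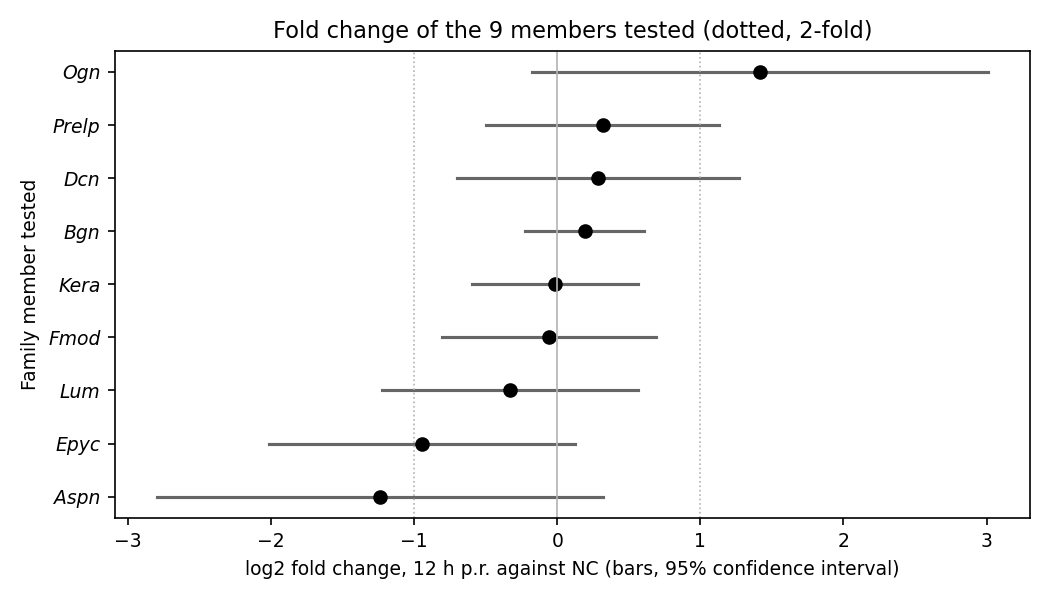
Log2 fold change of the 9 tested members, 12 h p.r. against NC, with 95% confidence intervals as bars and dotted lines at a 2-fold change. All 9 intervals include 0, and that of *Ogn*, from -0.18 to 3.01, is the widest.

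The class I members carry chondroitin or dermatan sulfate chains, apart from asporin. *Dcn* encodes decorin, a proteoglycan with a single chain that coats collagen fibrils. Its CPM was 6350, 17040, 3831, and 14330 in 12 h p.r. replicates 1 to 4 and 8014, 8479, 10640, and 6915 in NC replicates 1 to 4. The 4 running rats lay outside the NC range, replicates 2 and 4 above it and replicates 1 and 3 below it. The group means were 10390 ± 6301 CPM and 8512 ± 1563 CPM (SD, n = 4 each). Between the groups the log2 fold change was 0.29 (SE 0.436, 95% interval -0.70 to 1.27), with an edgeR quasi-likelihood adjusted p-value of 0.865 by Benjamini-Hochberg. The 2-sided exact permutation test gave p = 0.943, where 4 against 4 rats cannot go below 0.0286. Without 12 h p.r. replicate 2 the log2 fold change turned to -0.06, and without replicate 3, the rat high in muscle markers, it was 0.56.

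*Bgn* encodes biglycan, the close relative of decorin with a pair of chains. It stood at 1033, 937.3, 669.6, and 1175 CPM in the running rats and 838.3, 796.5, 955.5, and 748.9 CPM in the NC rats. Running replicates 1 and 4 exceeded all NC rats and replicate 3 fell below them. On the scale of log2(CPM + 0.5), its SD was 0.347 in the running and 0.149 in the NC group, the lowest of the 9 tested members in each. Its log2 fold change was 0.19 (SE 0.183, 95% interval -0.22 to 0.61), with an adjusted p-value of 0.769 in edgeR and an exact permutation p-value of 0.429. The interval leaves room for changes of 0.857 to 1.52 times. Leaving out replicate 3 of the running group, the rat with the highest sum of muscle markers, gave 0.33 with an unadjusted edgeR p-value of 0.0432 and an adjusted one of 0.443. That fit had 1580 of 14236 genes at an unadjusted p-value under 0.05.

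*Aspn* encodes asporin, a class I member with an aspartate-rich N terminus and no glycosaminoglycan chain that binds collagen. Its CPM was 17.34, 3.82, 26.89, and 2.722 in the running rats, from 29 to 226 reads, and 16.43, 16.68, 50.07, and 35.86 in the NC rats, from 136 to 663 reads. Running replicates 2 and 4 lay far below all other rats, while replicates 1 and 3 lay within the NC range. The group means were 12.69 ± 11.57 and 29.76 ± 16.31 CPM (SD, n = 4 each), a log2 fold change of -1.24 (SE 0.69, 95% interval -2.80 to 0.32). The edgeR adjusted p-value was 0.607 and the exact permutation p-value 0.171. NC replicate 3, which had the highest *Aspn*, was also the rat with the highest sum of cartilage and bone markers. The other rat high in these markers, running replicate 1, had 17.34 CPM of *Aspn*. NC replicate 4 had 35.86 CPM of *Aspn* with a marker sum of 472.5 CPM, and running replicate 3 had 26.89 CPM with the lowest sum, 250.27 CPM. Without NC replicate 3 the log2 fold change was -0.87. Without running replicate 3 it was -1.94, with an unadjusted edgeR p-value of 0.018 and an adjusted one of 0.404. That fit had 1580 of 14236 genes at an unadjusted p-value under 0.05. The part of the cartilage and bone markers in the *Aspn* values was not tested. With the muscle markers as covariate and running replicate 3 left out, the log2 fold change was also -1.94.

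Among the class II members, *Fmod* encodes fibromodulin, a keratan sulfate proteoglycan required for normal tendon fibril growth. Its CPM was 2890, 3568, 1194, and 3673 in the running rats and 2764, 3756, 2849, and 2421 in the NC rats. Only running replicate 3 fell outside the NC range, below it. The log2 fold change was -0.06 (SE 0.33, 95% interval -0.80 to 0.69, edgeR adjusted p = 0.97, exact permutation p = 0.829). Without running replicate 3, the rat with 62502 CPM of muscle markers, the log2 fold change was 0.20.

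*Lum* encodes lumican, which shares a binding site on collagen with fibromodulin. It stood at 148.4, 170.9, 141.5, and 345.5 CPM in the running rats and 210.4, 120.9, 400.5, and 282.6 CPM in the NC rats. The running values lay inside the NC range in 4 of 4 rats, and the NC rats alone spread from 120.9 to 400.5 CPM. Between the groups this was a log2 fold change of -0.33 (SE 0.395, 95% interval -1.22 to 0.56), with an edgeR adjusted p-value of 0.821 and an exact permutation p-value of 0.543. Leaving out NC replicate 3 gave -0.02 and leaving out running replicate 4 gave -0.72.

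*Kera* encodes keratocan, best known from the cornea and also a marker of tenocytes. In the running rats it was found at 445.2, 766.4, 427.3, and 526.5 CPM and in the NC rats at 691.8, 375.6, 676.2, and 447.2 CPM. Running replicate 2 was the highest of the 8 and NC replicate 2 the lowest. Its log2 fold change was -0.02 (SE 0.257, 95% interval -0.60 to 0.56, edgeR adjusted p = 0.991, exact permutation p = 0.971), and took either sign when single rats were left out.

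*Prelp* encodes a proline- and arginine-rich member that binds heparan sulfate and anchors basement membranes to connective tissue. Its CPM was 925.6, 1740, 517.9, and 1610 in the running rats and 807.7, 1251, 1041, and 750.4 in the NC rats. Like *Dcn*, it was highest in running replicates 2 and 4 and lowest in running replicate 3. Its log2 fold change was 0.32 (SE 0.36, 95% interval -0.50 to 1.13), with an edgeR adjusted p-value of 0.811 and an exact permutation p-value of 0.686. It was 0.08 without running replicate 2 and 0.57 without running replicate 3.

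In class III, *Ogn* encodes osteoglycin (mimecan), a matrix protein first described in bone. Its CPM was 28.99, 306.2, 27.61, and 137 in the running rats, from 224 to 2324 reads, and 39.84, 64.75, 42.37, and 40.27 in the NC rats. Running replicates 2 and 4 exceeded every NC rat, and running replicates 1 and 3 were below every NC rat. The group means were 124.9 ± 131.2 and 46.81 ± 12.01 CPM (SD, n = 4 each). The log2 fold change was 1.42 (SE 0.705, 95% interval -0.18 to 3.01), and with an edgeR adjusted p-value of 0.565 and an exact permutation p-value of 0.457 it was not beyond the spread between rats. The size depended on the rats and on the fit. It was 0.47 without running replicate 2, and with all 8 rats it was 0.72 with limma on log2(FPKM + 1), 0.73 with limma on log2(FPKM + 0.1), 0.75 with a replicate block, and 1.00 with the muscle marker score as covariate. Without running replicate 3 it was 1.75, with an unadjusted edgeR p-value of 0.0172 and an adjusted one of 0.404. That fit had 1580 of 14236 genes at an unadjusted p-value under 0.05.

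*Epyc* was found at 1.682, 0.6587, 0.357, and 1.22 CPM in the running rats and 1.603, 3.189, 1.359, and 1.614 CPM in the NC rats. Running replicates 2, 3, and 4 lay below all NC rats and replicate 1 lay within their range. The log2 fold change was -0.94 (SE 0.472, 95% interval -2.01 to 0.12, edgeR adjusted p = 0.566, exact permutation p = 0.114) from at most 26 reads per library. Without running replicate 1 it was -1.30.

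Several members spread widely within the running group. The ratio of the highest to the lowest running rat in CPM was 11.1 for *Ogn*, 9.88 for *Aspn*, 4.45 for *Dcn*, 3.36 for *Prelp*, and 3.08 for *Fmod*, against 1.63, 3.05, 1.54, 1.67, and 1.55 in the NC group. On the scale of log2(CPM + 0.5), the SD among running rats was 1.70 for *Ogn*, 1.51 for *Aspn*, and 1.01 for *Dcn*, at percentiles 98.7, 98.2, and 96.2 of all tested genes. *Prelp* was at percentile 93.8 and *Fmod* at 92.8, whereas *Kera* was at 74.2. In the NC group the SD of *Aspn* (0.792, percentile 96.6) and *Lum* (0.73, percentile 95.7) was high, while that of *Dcn* was 0.258 (percentile 64.9) and that of *Bgn* 0.149 (percentile 33.1). The difference in spread between the groups was not tested.

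**Figure D3:**
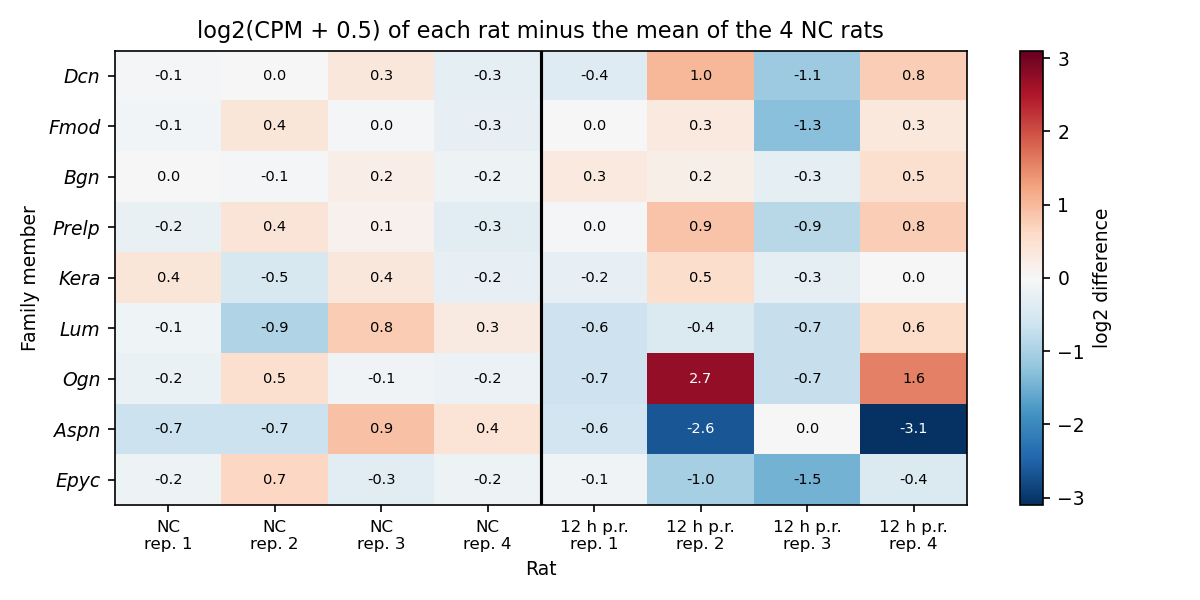
Log2(CPM + 0.5) of each rat minus the mean of the 4 NC rats, for the 9 detected members, with red above and blue below that mean. The columns of 12 h p.r. replicates 2 and 4 are red for *Dcn*, *Prelp*, and *Ogn* and deep blue for *Aspn*, and the column of replicate 3 is blue for 8 of the members.

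Running replicates 2 and 4 shared a pattern that neither replicate 1 nor 3 of the running group showed. In both, *Dcn*, *Prelp*, and *Ogn* were above all NC rats and *Aspn* was below all NC rats. The ratio of *Ogn* to *Aspn* in FPKM was 46.1 and 29 in these rats, compared with 0.962 and 0.591 in running replicates 1 and 3 and 0.487 to 2.23 in the NC rats. These genes are neighbors on chromosome 17 with only *Omd* between them. The rats were singled out after their values were seen, so no test was made. Replicate 2 was also the rat with the lowest value of 6 of 6 adipocyte markers (2736 CPM in sum against 3865.3 to 6688.4 CPM in the other 7 rats). The adipocyte sum was 3916.7 CPM in replicate 4. Replicates 2 and 4 also had the highest mean log2(CPM + 0.5) of the 10 tenocyte markers, 9.56 and 9.52. The other 6 rats lay at 8.37 to 9.33. Replicates 2 and 4 held the highest value for 4 and 3 of these markers, a list that includes *Fmod* and *Kera*. The summed CPM of the tenocyte markers gave a different order. The highest sum, 49093, belonged to running replicate 1. Replicate 4 came next with 42463, while replicate 2 (38916) was below NC replicate 3 (41627). *Comp*, a tenocyte marker that encodes cartilage oligomeric matrix protein and was picked after its values were seen, was at 2029 and 2134 CPM in replicates 2 and 4 against 237.8 to 1362 CPM in the others. Of the same list, *Col1a1* was at 24140 and 26380 CPM in these rats, within the NC range of 19650 to 30610 CPM. *Tnmd* was at 318.5 and 309.4 CPM, within the NC range of 223.6 to 391.6 CPM. Markers of the synovial lining and sheath (5 tested of 6) summed to 3296.3 and 1792.4 CPM in replicates 2 and 4, to 692.65 and 706.65 CPM in running replicates 1 and 3, and to 719.28 to 4097.6 CPM in the NC rats. The part of these markers in the pattern was not tested.

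**Figure D4:**
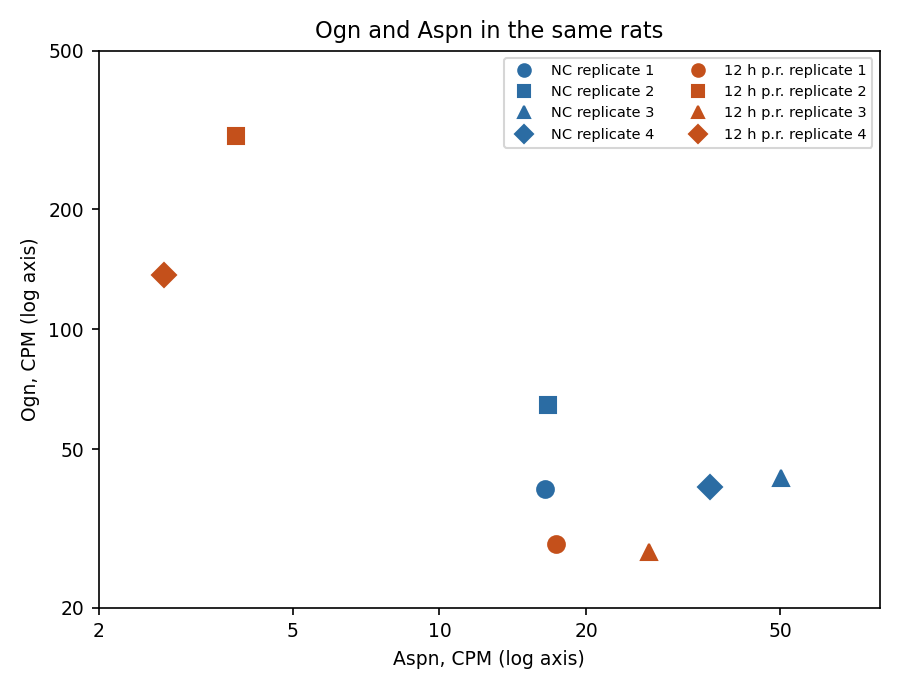
CPM of *Ogn* against CPM of *Aspn* in each rat, both on log axes, with NC rats in blue and 12 h p.r. rats in orange. Replicates 2 and 4 of the running group sit apart at the upper left, with 306.2 and 137 CPM of *Ogn* and 3.82 and 2.722 CPM of *Aspn*, while the other 6 rats lie between 27.61 and 64.75 CPM of *Ogn*.

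The family as a whole took 1.21, 2.53, 0.615, and 2.18% of all counts in the running rats and 1.29, 1.45, 1.73, and 1.24% in the NC rats. Running replicates 2 and 4 were above and running replicates 1 and 3 below all NC rats. *Dcn* made up 65.2 to 78.8% of the summed FPKM of the family. Its share was lowest in running replicates 1 and 3, and highest in running replicates 2 and 4, with 69.3 to 73.4% in the NC rats. The ratio of biglycan to decorin mRNA was 0.125, 0.0422, 0.134, and 0.0629 in the running rats and 0.0689 to 0.0831 in the NC rats, so the running rats lay on both sides of the control range. The ratio of lumican to fibromodulin mRNA was 0.0843 to 0.209 in the running rats, inside the NC range of 0.0567 to 0.247. Against *Col1a1*, the main fibril-forming collagen of tendon, the ratio of *Dcn* FPKM was 0.528, 2.21, 1.08, and 1.7 in the running rats and 0.893 to 1.1 in the NC rats. *Col1a1* itself was lowest in running replicate 3 (1897 FPKM) and highest in running replicate 1 (6372 FPKM).

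**Figure D5:**
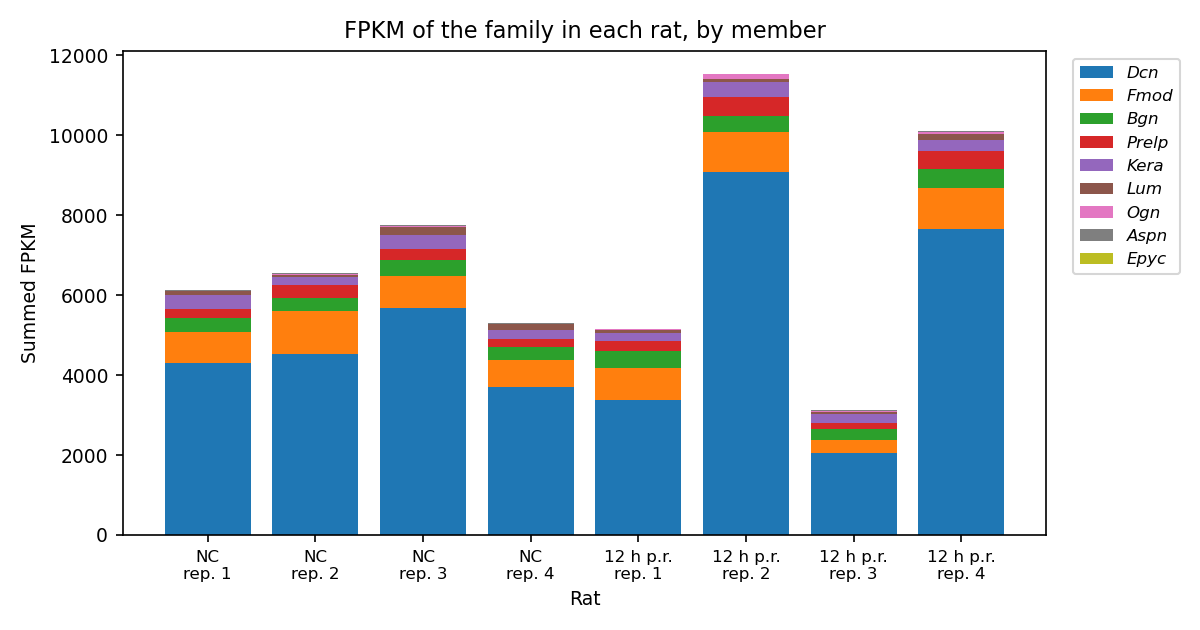
Summed FPKM of the family in each rat, stacked by member, with the axis starting at 0. The sum runs from 3115.8 in 12 h p.r. replicate 3 to 11538 in 12 h p.r. replicate 2, and *Dcn* is the largest part in 8 of 8 rats.

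Other genes of proteoglycan biology were taken as lists and read from the same test. Of the other small leucine-rich proteoglycans, 6 of 8 were in the table and 4 were tested. *Tsku*, which encodes tsukushi, had an unadjusted p-value under 0.05, at 35.2, 32.14, 31.89, and 32.48 CPM in the running rats and 51.06, 47.34, 41.39, and 36.96 CPM in the NC rats. The groups did not overlap, and its log2 fold change was -0.42 (SE 0.111, edgeR adjusted p = 0.421). *Chad*, which encodes the cell-binding chondroadherin, reached 920.3 ± 578 FPKM in the running and 668.2 ± 304 FPKM in the NC group (SD, n = 4 each), a level between those of *Dcn* and *Bgn*. *Optc*, the opticin gene next to *Prelp*, had 3.83 ± 1.84 and 2.704 ± 0.83 FPKM. The median log2 fold change of the 4 tested genes was 0.301, with 0 genes past the adjusted threshold.

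The enzymes that build the chains showed small differences. Of the enzymes of the linker and of chondroitin or dermatan sulfate, 21 of 22 were tested, 0 passed even the unadjusted threshold, and the log2 fold changes lay between -0.249 and 0.343 with a median of -0.0636. The smallest p-values were those of *Chst12*, a chondroitin 4-sulfotransferase (27.3 ± 4.81 and 22.29 ± 2.7 FPKM), and *B3gat3*, which adds the glucuronic acid of the linker (43.07 ± 2.59 and 38.77 ± 2.46 FPKM). Of the 10 keratan sulfate enzymes, 1 was lower at an unadjusted p-value under 0.05 and the median was -0.0725. This was *B4galt1*, a galactosyltransferase, at 34.17 to 41.76 CPM in the running and 42.88 to 46.22 CPM in the NC rats without overlap (log2 fold change -0.28, SE 0.0854, edgeR adjusted p = 0.433). *B3gnt2*, which extends the chain, had a log2 fold change of -0.22 (edgeR adjusted p = 0.577).

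The collagens that bind the family, 12 tested of 13, had a median log2 fold change of -0.0223, and 1 was higher at an unadjusted p-value under 0.05. This was *Col5a3*, a chain of the type V collagen found inside fibrils, with 35.71 ± 8.78 against 24.8 ± 4.76 FPKM (log2 fold change 0.53, edgeR adjusted p = 0.48). *Col6a1*, a chain of the pericellular type VI collagen, had 0.49, and *Col1a1* had -0.11. The list of proteases reported to cleave members, which also held the cleavage enhancer *Pcolce*, had 12 tested of 15 and a median of -0.0146. *Mmp2*, a gelatinase, was lower at an unadjusted p-value under 0.05, with 166.1 ± 33.3 against 263.9 ± 71.3 FPKM (log2 fold change -0.66, edgeR adjusted p = 0.464). Of the same list, *Tll1*, a tolloid-like protease, had -0.24, and *Pcolce*, a protein that enhances procollagen cleavage, had -0.09. Of the growth factors and receptors reported to bind members, 21 were found by symbol and 20 were tested. The list of 23 symbols held *Ccn2* and *Ccn4* also under older symbols. The median was -0.00729, and 2 genes were lower at an unadjusted p-value under 0.05. These were *Tgfb2*, a transforming growth factor β (log2 fold change -0.45, edgeR adjusted p = 0.432), and *Ccn2*, which encodes connective tissue growth factor. *Ccn2* was at 918.5, 963.9, 302.7, and 939.1 CPM in the running rats and 1442, 1121, 1162, and 2098 CPM in the NC rats (log2 fold change -0.90, edgeR adjusted p = 0.498). Its lowest rat was the one with the highest sum of muscle markers. In each of these 6 lists 0 genes passed the adjusted threshold in edgeR, and each share at the unadjusted threshold is to be read against the 9.51% of all genes.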

How the data were processed

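The authors aligned the reads to Rnor_6.0 with HISAT2 2.1.0 and counted reads per Ensembl gene with featureCounts 1.6.3, per the submitters' processing notes and the methods. The deposited counts are raw whole numbers for each gene and library. The library kit and alignment keep strand, while the use of strand in counting, and of reads that match several genes, was not given in the sources used here. The authors also deposited FPKM values. Between libraries, the ratio of counts to FPKM followed each rat's size factor from DESeq2 in the 9838 genes compared. Gene lengths were not part of this check. A deposited table of the authors' comparison, made with DESeq2 1.30.1, holds log2 fold changes and p-values and was not used.

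Groups were taken from the sample labels. With edgeR 4.0.16, genes were filtered by filterByExpr, libraries were scaled by TMM, and 12 h p.r. was compared with NC by the quasi-likelihood test (glmQLFit, glmQLFTest) without covariates. P-values were adjusted by Benjamini-Hochberg over 13937 genes. CPM are counts scaled to 1000000 reads of the TMM-scaled library, and the SE of a fold change follows from its quasi-likelihood F. Exact permutation tests were 2-sided, over all splits of the rats, on log2(CPM + 0.5). Depth was 7350509 to 12951397 counts per library, and intervals and floors cover counting error or spread between rats only. The test was checked on simulated counts. It called 49 of 99 simulated 2-fold changes (49.5%) and 83 of 94 simulated 4-fold changes (88.3%), with 8 unchanged genes called in each case. Many 2-fold changes would thus be missed. Alternatives used DESeq2 1.42.0, limma 3.58.1 on log2(FPKM + 1) or log2(FPKM + 0.1), other factors and filters, a replicate block, a muscle marker score, and single rats left out. Scripts ran in R 4.3.3 and Python 3.11.15.

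The members and lists were chosen with earlier results of these data known. The named genes were all members and, from each list, the 2 tested genes with the smallest p-values and the gene with the highest FPKM; for likeness, the 2 genes with the highest Pearson r to each member. Promoter sequences were taken from RefSeq (GRCr8).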

Additional observations from a re-analysis of the deposited data

Results flagged for a closer look

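Of the 28 groups of 4 values examined for the members and the family, 1 held a rat far from the other 3, where chance gives about 1.4 such groups. The value of *Ogn* in NC replicate 2 was 6.03 on the scale of log2(CPM + 0.5), whereas the other NC rats lay between 5.33 and 5.42. Running replicates 2 and 4 both exceeded it.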

How the results depend on the processing

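No member passed the adjusted threshold under any of the 21 alternatives, and the smallest adjusted p-value of a member was 0.404. Over all genes, DESeq2 called 95, limma on FPKM called 0 under each of its 3 settings, the muscle marker score as covariate called 2 with or without 12 h p.r. replicate 3, leaving out 1 rat called 0 each time, leaving out 12 h p.r. replicate 1 together with NC replicate 3 called 0, and 1326 passed an unadjusted p-value under 0.05, against 1 in edgeR as reported. The cause was not tested. The labels do not say whether same-numbered rats were paired. Deviations of same-numbered rats correlated at 0.075, -0.202, 0.129, and 0.0895, against -0.31 to 0.336 for rats of different numbers. With 4 rats per group these values cannot exclude a pairing. With a replicate block 0 genes and 0 members were called (974 genes and 1 member, *Aspn*, at an unadjusted p-value under 0.05).

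The log2 fold change changed sign for *Dcn* without 12 h p.r. replicate 2 (-0.0595); for *Fmod* without 12 h p.r. replicate 3 (0.196), without NC replicate 2 (0.0803), and without 12 h p.r. replicate 3 with the muscle score (0.342); for *Lum* without 12 h p.r. replicate 1 and NC replicate 3 (0.0979); and for *Kera* without 12 h p.r. replicate 1 (0.0663) or 3 (0.0806), without NC replicate 1 (0.116) or 3 (0.0999), without 12 h p.r. replicate 1 and NC replicate 3 (0.182), and without 12 h p.r. replicate 3 with the muscle score (0.11). With 1 rat left out at a time, the value ranged from -0.0595 to 0.563 for *Dcn*, from -0.208 to 0.196 for *Fmod*, and from -0.232 to 0.116 for *Kera*. *Bgn*, *Aspn*, *Prelp*, *Ogn*, and *Epyc* kept their sign in 21 of 21 alternatives. With CPM in place of FPKM, the mean share of the family held by *Dcn* was 60.6 instead of 71.0%, that of *Fmod* 19.6 instead of 12.1%, and that of *Prelp* 7.13 instead of 4.29%. *Epyc* rests on 3 to 26 reads per library, and *Omd* had 0 reads.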

Other observations

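For each tested member, the 2 genes outside the family whose log2(CPM + 0.5) followed it most closely over the 8 rats were sought among the 13937 tested genes. Both genes of a pair were measured in the same 8 libraries, and the best of so many genes is high by selection, so these values are descriptions. *Prelp* was followed by *Tnfrsf11b*, which encodes the decoy receptor osteoprotegerin (Pearson r = 0.989, Spearman rho = 1), and by *Cilp*, a cartilage intermediate layer protein that is also a tendon matrix protein (r = 0.987, rho = 1). *Tnfrsf11b* stood at 68.6, 191, 20.5, and 141 CPM in the running rats and 45.9, 91.2, 85.9, and 44.1 CPM in the NC rats.

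*Dcn* was followed by *Nek1*, a kinase (r = 0.984, rho = 1), and *Ttc7a* (r = 0.974). *Fmod* was followed by *Marveld1* (r = 0.992) and *Zcchc12* (r = 0.974), and *Bgn* by *Calhm2* (r = 0.984) and *Mydgf* (r = 0.968). *Ogn* was followed by *Sfxn3*, a mitochondrial carrier (r = 0.993, rho = 0.905), and *Rab23*, a small GTPase (r = 0.953, rho = 0.952), at 41, 80, 32.8, and 65.4 CPM in the running rats against 34.9 to 47.3 CPM in the NC rats. *Aspn* was followed by the gene AC105662.3 (r = 0.959) and by *Lifr*, the receptor of leukemia inhibitory factor (r = 0.94). *Lum* was followed by *Mapk7* (r = 0.958) and LOC102553715 (r = 0.957), *Kera* by *Hmgn1* and *Mir1893* (r = 0.964 each), and *Epyc* by *Ddit3* and *Mtcl1* (r = 0.969 each). Levels were only 0.981 to 2 CPM for *Mir1893*, 0.476 to 3.29 CPM for *Zcchc12*, and 1.5 to 3.32 CPM for AC105662.3.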
